A study of Rattus norvegicus with 6 samples.

Results

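The genes described here are 36 targets of the transcription factor NRF2 and other antioxidant enzymes. They were chosen by symbol from knowledge of the pathway, and 33 of them had a row under that symbol in a table of 19289 features. No row carried the symbols Srxn1, Pgd or Gpx2. Of the 33, 28 had a mean of at least 1 FPKM (fragments scaled to transcript length and library size) over all libraries and entered the test, with 12460 features in all. Osgin1, Gstp1, Gsta4, Gpx1 and Gpx3 lay below that level. RNA came from INS-1E cells, an established rat insulinoma line that secretes insulin and serves as a model of the beta cell. One group of 3 libraries was untreated, and the other group of 3 came from cells of the same line treated with uric acid (UA in the labels) for 24 hours. The labels give neither a concentration of uric acid nor a vehicle, and they do not say whether the replicates were separate cultures, so every p-value measures only the spread between these libraries.

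NRF2, encoded by Nfe2l2, is held low by the adaptor protein KEAP1, which presents it to a CUL3 ubiquitin ligase for degradation. Oxidants and electrophiles modify KEAP1, and NRF2 then pairs with small MAF proteins and binds the antioxidant response element of its target genes. These targets reduce quinones, regenerate thioredoxin and glutathione, make NADPH and store iron. Pancreatic beta cells are known for low levels of catalase and glutathione peroxidase. Uric acid can scavenge radicals outside the cell and can favour oxidant production inside it.

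Summed estimated counts ranged from 41191819 to 59092982 per library, on a scale where a full pair of reads would add 4 counts. Uric acid library 2 stood apart most: it lay at 33.3 on the first principal component, where the other uric acid libraries lay at 15.7 and 3.22 and the untreated libraries between -23.1 and -11.0. It also had the smallest total and the largest share of mitochondrial counts (9.10%, against 7.87 to 8.49% in the other libraries). Of 14 beta-cell markers 13 were listed, and their summed level, mostly Ins1 and Ins2, ranged from 73920 to 89109 FPKM. Of the 13, 8 had an unadjusted p under 0.05 and 2 passed the test: Mafa at -0.46 and Ucn3 at 0.50. Leaving out 1 library ended the call of Mafa in 2 of 6 cases (untreated library 1 or uric acid library 1, adjusted p up to 0.0710) and that of Ucn3 in 3 of 6 (each untreated library, up to 0.135). Markers of other islet cells (3 of 7 listed) summed to between 6.005 and 10.97 FPKM, mostly Gcg. Those of acinar and duct cells (5 of 9 listed) summed to between 1.09 and 1.88 FPKM. Those of stromal, endothelial and immune cells (7 of 10 listed) summed to between 2.89 and 4.20 FPKM. Prss1, Krt19, Cdh5 and Cd3e, defining genes of such cells, were listed at 0 in 5 of 6 libraries each. Ctrb1, Muc1, Vim, Col1a1, Col3a1 and Cd68 of the same lists were above 0 in every library, the highest being Vim at up to 2.24 FPKM.

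No tested antioxidant gene passed the test between uric acid and untreated cells. At an adjusted p under 0.05 in edgeR's quasi-likelihood test, 0 of 28 were higher and 0 were lower, where 7.98% of all tested features were called (4.99% higher and 2.99% lower). An unadjusted p under 0.05 was reached by 3 of the 28, against 25.7% of all tested features, and the smallest adjusted p was 0.101. DESeq2 also called 0, with 3 at an unadjusted p under 0.05, and limma called 0, with 2. The shares above are edgeR's. DESeq2 called more of all tested features than edgeR, as counted in the closing section, and limma's share is not given here. The groups did not overlap for 2 of the 28, both lower with uric acid, where 31% of all tested features did not overlap (14.2% lower). The median log2 fold change of the 28 was -0.14, with 19 below zero and 9 above, while the median of all tested features was 0.00. The median size of the difference, whatever its sign, was 0.15 for the members and 0.16 for all tested features.

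**Figure D1:**
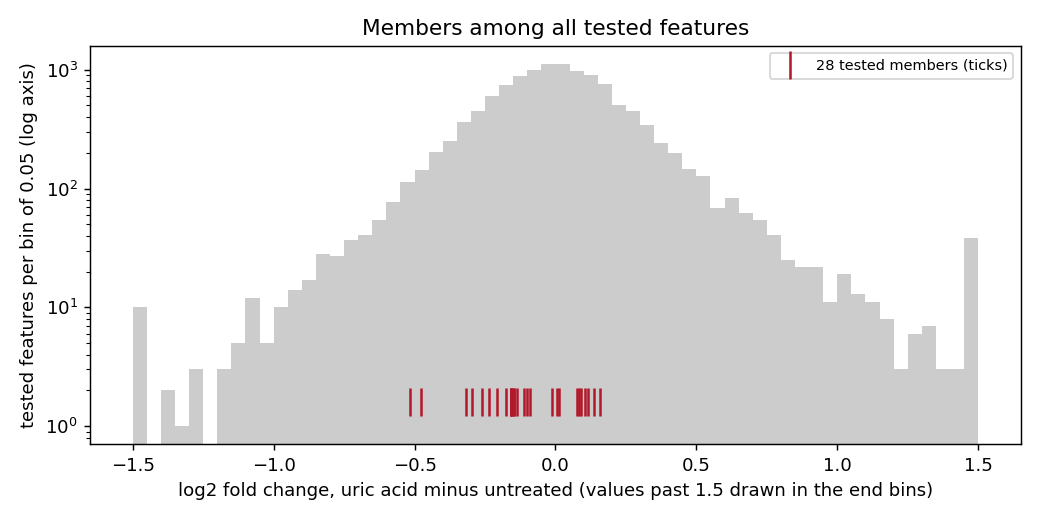
Histogram of the log2 fold change (x axis, uric acid minus untreated) of all 12460 tested features, with the number of features per bin on a log y axis; the 28 tested members are ticks. The members lie between -0.52 and 0.16, and 19 of the 28 lie below zero.

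The intervals show how large a change could have been missed. The 95% interval of the fold change ended below a 2-fold increase for all 28 tested members and below a 1.5-fold increase for 26, the 2 exceptions being Mt1 and Mt2A. It stayed within 2-fold in both directions for 25 members, and the lower end reached past a 2-fold decrease for Mt1, Mt2A and Abcc1.

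**Figure D2:**
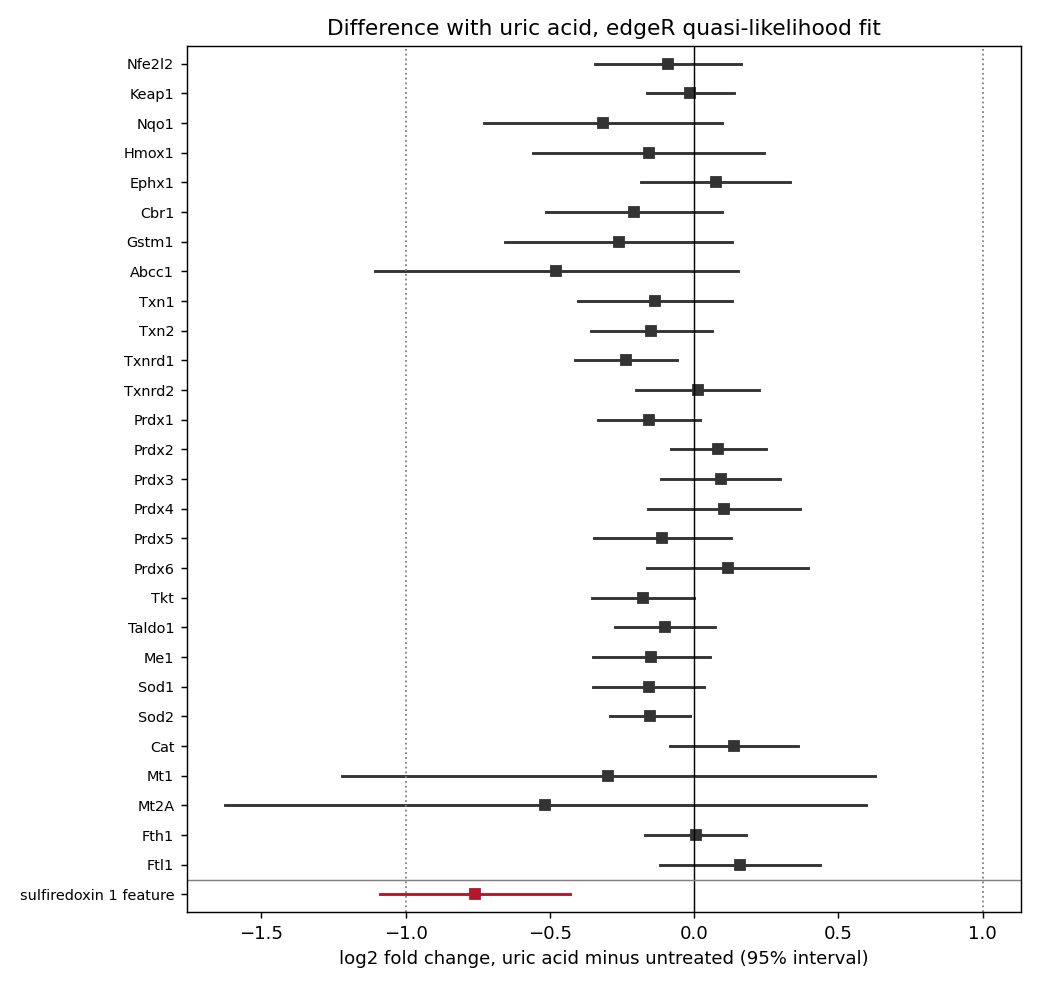
Log2 fold change (x axis, uric acid minus untreated) with its 95% interval for the 28 tested members in order of class, and below the line the feature that the deposited table describes as sulfiredoxin 1, in red as past the threshold. Dotted lines mark a 2-fold change; only Mt1, Mt2A and Abcc1 among the members, and the sulfiredoxin 1 feature, have intervals that cross one.

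The messages of NRF2 and of its inhibitor did not pass the test. Nfe2l2 stood at 19.1, 19.1 and 22.6 FPKM in the untreated libraries and 18.9, 21.4 and 16.8 FPKM with uric acid. The groups overlapped, and the log2 fold change was -0.09 ± 0.11 (standard error; adjusted p = 0.648). Keap1 stood at 15.8, 16.6 and 15.7 FPKM untreated and 15.8, 15.9 and 16.04 FPKM with uric acid, a log2 fold change of -0.01 ± 0.07 (adjusted p = 0.921). Its 95% interval ran from 0.892-fold to 1.10-fold. NRF2 is mainly controlled through the stability of its protein, which was not measured here. Nfe2l2 (ENSRNOG00000001548) is listed on chromosome 3 from 62497571 to 62524996 and Keap1 (ENSRNOG00000020878) on chromosome 8 from 22250518 to 22259779. The sources used here name no genome build for these positions.

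**Figure D3:**
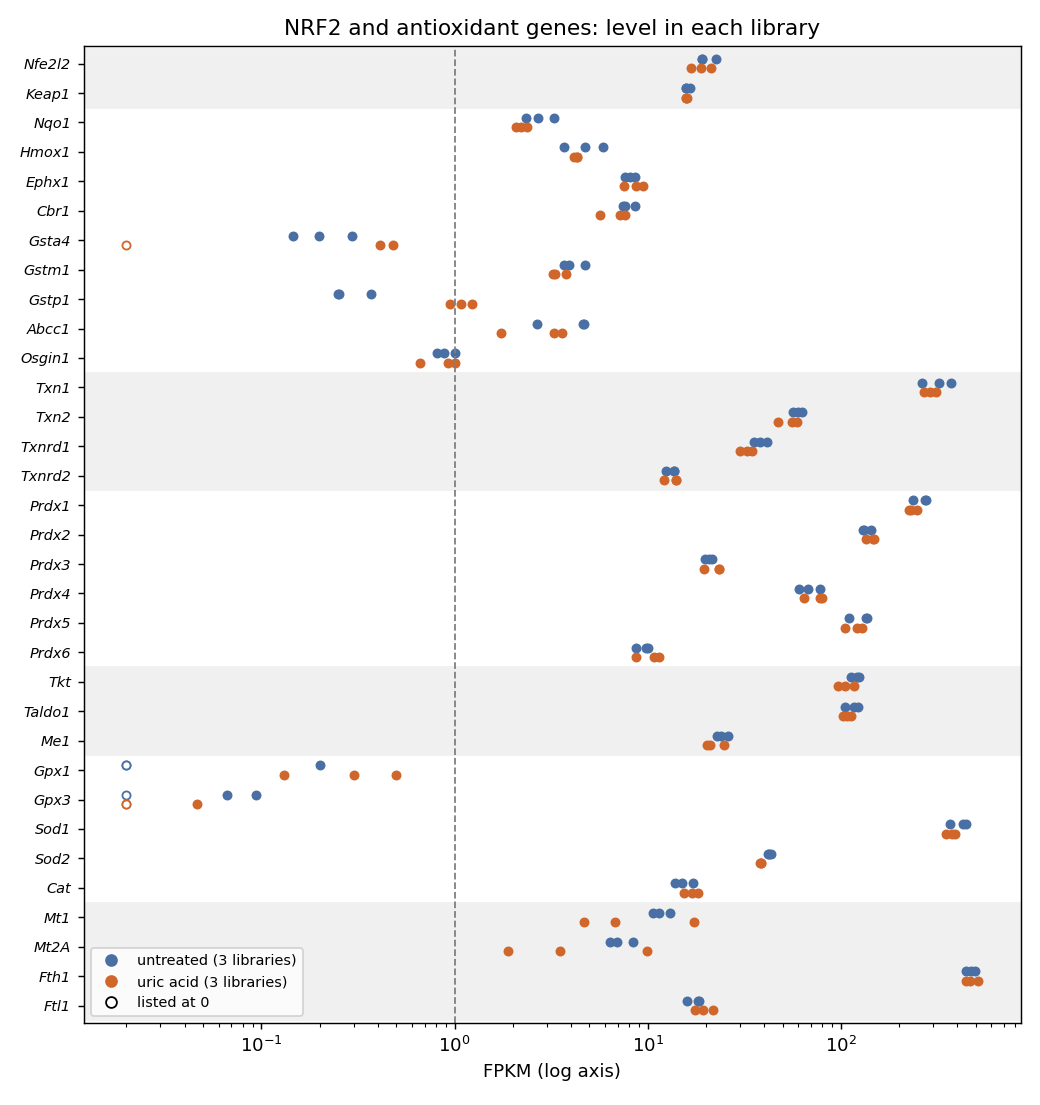
FPKM (log x axis) of the 33 members with a row, 1 point per library, blue for the 3 untreated and orange for the 3 uric acid libraries; shading separates the classes, the dashed line marks 1 FPKM, and open points at the left edge are values listed at 0. Fth1, Sod1, Txn1 and Prdx1 are above 200 FPKM in every library, while Gsta4, Gpx1 and Gpx3 stay below 0.5.

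Enzymes that detoxify quinones, haem and foreign compounds were present at low levels. Nqo1, the quinone reductase often read as a sign of NRF2 activity, stood at 2.70, 2.36 and 3.26 FPKM untreated and 2.38, 2.08 and 2.21 FPKM with uric acid. Uric acid libraries 2 and 3 were below all untreated libraries and library 1 was not. The log2 fold change was -0.32 ± 0.18 (adjusted p = 0.315), and the 95% interval ended at 1.07-fold on the upper side. Hmox1, which splits haem, stood at 3.68, 5.85 and 4.71 against 4.29, 4.14 and 4.31 FPKM, so the uric acid libraries lay inside the untreated range (-0.16 ± 0.18, adjusted p = 0.612). Abcc1, a pump for glutathione conjugates, varied most among the tested genes of this class, with 4.65, 4.68 and 2.68 FPKM untreated and 3.28, 1.74 and 3.61 FPKM with uric acid (-0.48 ± 0.28, adjusted p = 0.320). The glutathione transferase Gstm1 (-0.26), the carbonyl reductase Cbr1 (-0.21) and the epoxide hydrolase Ephx1 (0.08) had adjusted p values from 0.370 to 0.719, and their groups overlapped.

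Gstp1, another glutathione transferase, was the one member whose uric acid libraries all lay above the untreated ones. Its FPKM were 0.370, 0.253 and 0.250 untreated and 1.23, 1.09 and 0.946 with uric acid. The estimated counts behind them were 21, 13 and 12 against 56, 42 and 41, so few read pairs carry the difference. It was below the level set for testing. With every listed feature tested instead, the edgeR log2 fold change was 1.84 ± 0.42 and the adjusted p 0.0431. That call was lost whichever library was left out (adjusted p from 0.0607 to 0.177) and with the replicate number as a block (0.173), and over 10 alternatives to that fit the adjusted p ranged from 0.0185 to 0.177. Of the other members below the level, Osgin1, an oxidative stress-induced growth inhibitor, was listed at 0.810, 0.879 and 1.01 FPKM untreated and 1.004, 0.667 and 0.926 FPKM with uric acid. Gsta4, a transferase for lipid aldehydes, ranged from 0 to 0.483 FPKM.

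Thioredoxin genes were among the abundant members. Txn1, cytosolic thioredoxin, stood at 265, 322 and 370 FPKM untreated and 312, 290 and 271 FPKM with uric acid, and the groups overlapped (-0.14 ± 0.12, adjusted p = 0.504). Txnrd1, the selenoenzyme that reduces it, had the smallest p of the 28. It stood at 41.4, 38.1 and 35.4 FPKM untreated and 32.8, 30.1 and 34.7 FPKM with uric acid. All uric acid libraries lay below all untreated ones, though untreated library 3 and uric acid library 3 were close. The log2 fold change was -0.24 ± 0.08 (adjusted p = 0.101), which missed the threshold in every alternative (adjusted p from 0.0550 with DESeq2 to 0.277). The mitochondrial pair Txn2 (-0.15, adjusted p = 0.352) and Txnrd2 (0.01, adjusted p = 0.954) overlapped between groups, and the rows of Txnrd2, Cbr1, Prdx6, Fth1, Ftl1 and Mt1 each overlap another listed feature, whose reads may be counted with theirs. Txnrd1 (ENSRNOG00000009088) is listed on chromosome 7 from 26946125 to 26984400.

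Peroxiredoxins, which destroy hydrogen peroxide with electrons from thioredoxin, summed to 570, 638 and 665 FPKM in the untreated libraries and 619, 617 and 576 FPKM with uric acid. Prdx1, the most abundant, stood at 237, 276 and 274 FPKM untreated and 250, 225 and 232 FPKM with uric acid (-0.16 ± 0.08, adjusted p = 0.252). Its groups overlapped through untreated library 1. Prdx2 (0.08), mitochondrial Prdx3 (0.09), Prdx4 of the endoplasmic reticulum (0.10), Prdx5 (-0.11) and Prdx6 (0.12) had adjusted p values from 0.506 to 0.612. Prdx6, at 48.3% of the way up the ranking of tested features by level, was the least abundant of the 6.

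Sulfiredoxin, the enzyme that repairs over-oxidized peroxiredoxins and a known NRF2 target, had no row named Srxn1. One row that carries the name of a sequence clone (AABR07054319, ENSRNOG00000031167, chromosome 3 from 147609095 to 147632801, plus strand) is described in the table as sulfiredoxin 1 and lies between Scrt2 and Csnk2a1. This clone name is carried by 2 rows, and the values below belong to the identifier given. The other row is not reported here. The sulfiredoxin 1 feature is no member by symbol and was singled out after its values were seen. It fell with uric acid, from 21.3, 17.7 and 18.4 FPKM to 11.3, 9.57 and 13.1 FPKM. All uric acid libraries lay below all untreated libraries. The mean fell from 19.2 ± 1.88 to 11.3 ± 1.78 FPKM (SD, n = 3 per group), a fitted change of -40.9% or, as log2 fold change, -0.76 ± 0.15 (edgeR adjusted p = 0.0170). Leaving out 1 library ended the call in 3 cases: the adjusted p was 0.0719 without the first untreated library, 0.0593 without the second, and 0.0763 without the first uric acid library. It held in the other 13 of 16 alternatives.

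**Figure D4:**
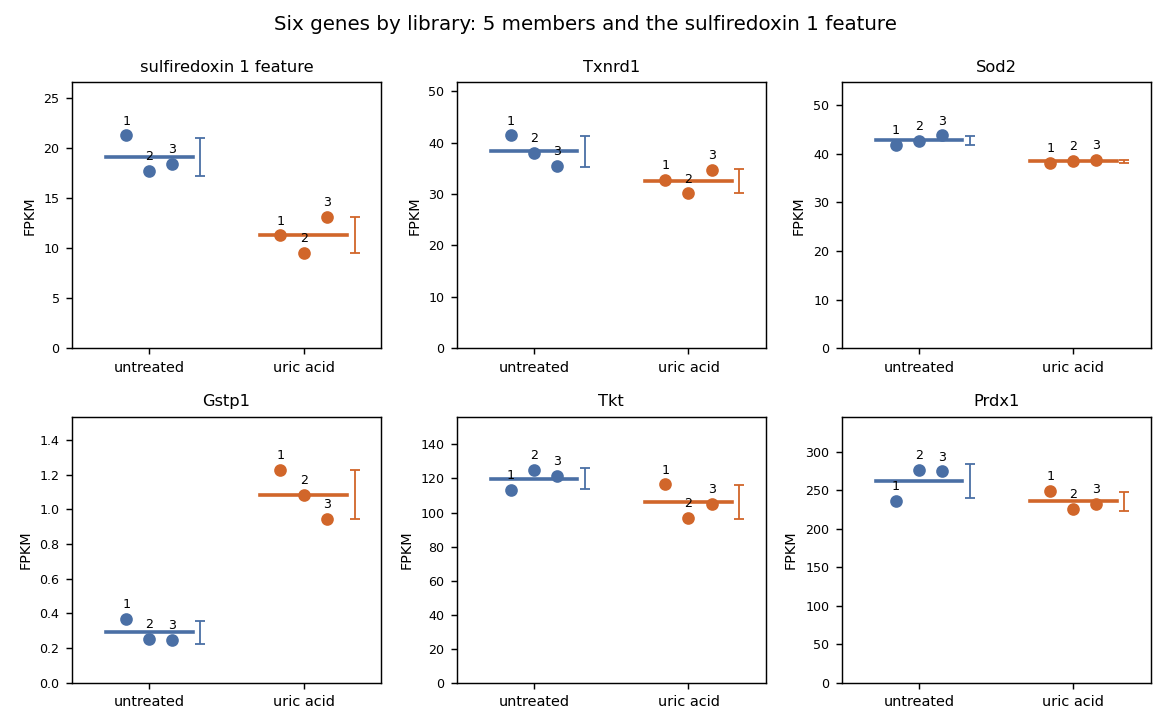
FPKM (y axis from 0) in each library of the sulfiredoxin 1 feature and of Txnrd1, Sod2, Gstp1, Tkt and Prdx1; points carry the replicate number, bars are group means and whiskers SDs (n = 3 per group). The groups do not overlap for the first 4, while Tkt and Prdx1 overlap.

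NADPH, which thioredoxin reductase and glutathione reductase consume, is made in part by the pentose phosphate pathway. Tkt, transketolase, stood at 113, 125 and 122 FPKM untreated and 117, 96.8 and 105 FPKM with uric acid (-0.18 ± 0.08, adjusted p = 0.193). Only uric acid library 1 reached into the untreated range. Taldo1, transaldolase, was similar in level, at 115 and 108 FPKM on average (-0.10, adjusted p = 0.446). Me1, the cytosolic malic enzyme, averaged 24.3 and 22.0 FPKM (-0.15, adjusted p = 0.337).

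Of the enzymes that act directly on superoxide and peroxide, the superoxide dismutases were abundant, while Gpx1 and Gpx3, the glutathione peroxidases among the members with a row, were near zero. Sod2, the mitochondrial dismutase, stood at 41.8, 42.7 and 43.7 FPKM untreated and 38.1, 38.5 and 38.7 FPKM with uric acid. The groups did not overlap, and the difference was small, at 0.900-fold with a 95% interval from 0.817-fold to 0.991-fold (-0.15 ± 0.06, adjusted p = 0.162). Sod1, its cytosolic counterpart, averaged 415 and 372 FPKM, with overlapping groups (-0.16, adjusted p = 0.283). Cat, catalase, stood at 15.0, 17.1 and 13.8 FPKM untreated and 18.3, 15.4 and 16.9 FPKM with uric acid (0.14 ± 0.10, adjusted p = 0.415). Its level was higher than that of 63.5% of tested features. Gpx1, the main cytosolic glutathione peroxidase in most tissues, was listed at 0, 0.200 and 0 FPKM untreated and 0.497, 0.302 and 0.132 FPKM with uric acid, from counts of 0, 12 and 0 against 26, 14 and 7. Gpx3, the plasma form, had at most 9 counts in any library. With every listed feature tested, the log2 fold changes were 2.13 ± 1.42 for Gpx1 (adjusted p = 0.455) and -1.78 ± 1.80 for Gpx3 (adjusted p = 0.623), too uncertain to give a direction. Sod2 (ENSRNOG00000019048) is listed on chromosome 1 from 47914759 to 47921587.

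Ferritin, which stores iron in a safe form, did not pass the test. Fth1, the heavy chain and the member with the highest level, stood at 445, 473 and 498 FPKM untreated and 466, 513 and 444 FPKM with uric acid (0.01 ± 0.08, adjusted p = 0.976). The row named Ftl1, the light chain, is a span of 908 bases on chromosome 5 between Crybg2 and Ubxn11. Its FPKM were 15.9, 18.2 and 18.5 untreated and 17.6, 21.9 and 19.3 with uric acid, averaging 17.5 and 19.6. The groups overlapped (0.16 ± 0.12, adjusted p = 0.449). Another row, LOC100360087, lies between Gys1 and Bax. It is described as ferritin light chain 1-like and averaged 569 and 624 FPKM (0.13 ± 0.08, adjusted p = 0.304). Reads of such near-identical copies cannot be assigned with certainty. These other rows were looked up after the values were seen.

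Metallothioneins bind zinc and copper and scavenge radicals, and their messages split the uric acid libraries. Mt2A stood at 8.40, 6.39 and 6.94 FPKM untreated and 3.50, 9.90 and 1.89 FPKM with uric acid. Mt1 stood at 11.5, 13.1 and 10.7 FPKM untreated and 4.69, 17.3 and 6.74 FPKM with uric acid. In both genes uric acid library 2 was above every other library, and uric acid libraries 1 and 3 were below every untreated one. With all libraries the log2 fold changes were -0.52 ± 0.49 for Mt2A (adjusted p = 0.546) and -0.30 ± 0.41 for Mt1 (adjusted p = 0.688). Without uric acid library 2 they were -1.43 (adjusted p = 0.0270) and -1.04 (0.0287), the only calls among members in any setting with the level filter in place. Over 16 alternatives the adjusted p ranged from 0.0270 to 0.866 for Mt2A and from 0.0287 to 0.968 for Mt1. The position of uric acid library 2 on the first component and its mitochondrial share are given above, and their part in these values was not tested.

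The row named Mt1 covers 389 bases on chromosome 17 inside Dclre1c, on the other strand, while RefSeq's GRCr8 has Mt1 between Nup93 and Mt2A. A protein-coding row with only a clone name (AC128848) lies there in the table. It stood higher, at 55.7, 52.4 and 39.9 FPKM untreated and 25.5, 57.4 and 30.7 FPKM with uric acid, with the same library on top (-0.38 ± 0.28, adjusted p = 0.417). Without uric acid library 2 its log2 fold change was -0.82 (adjusted p = 0.0193). Over its 16 alternatives the adjusted p ranged up to 0.771. Mt3, the brain-type metallothionein, stood at 30.0, 35.8 and 35.4 FPKM untreated and 29.5, 23.4 and 24.8 FPKM with uric acid, and its uric acid library 2 was the lowest of all (-0.38 ± 0.13, adjusted p = 0.113).

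**Figure D5:**
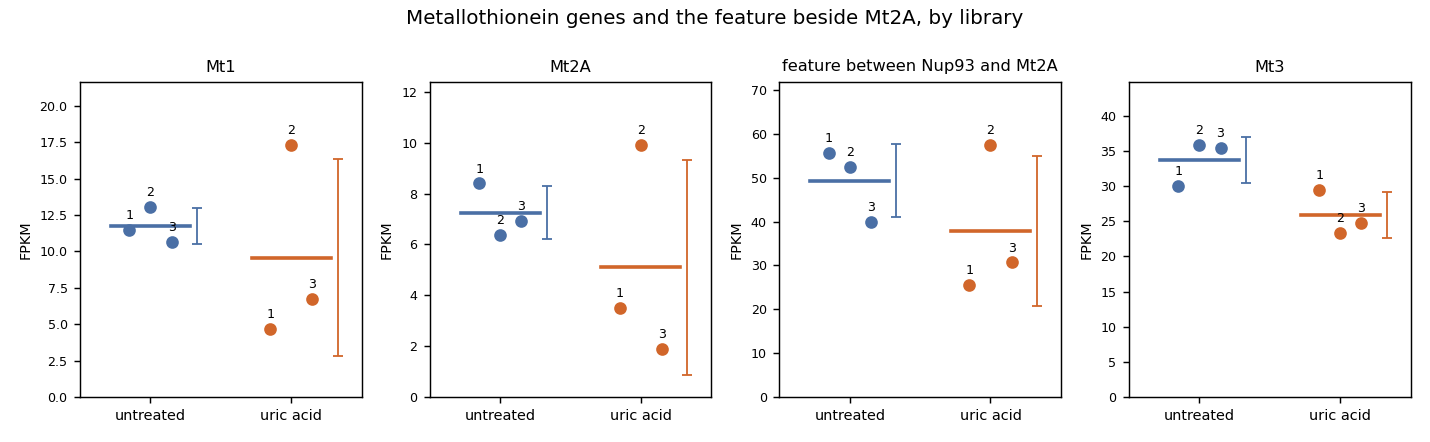
FPKM (y axis from 0) in each library of Mt1, Mt2A, the clone-named feature between Nup93 and Mt2A, and Mt3; points carry the replicate number, bars are group means and whiskers SDs (n = 3 per group). Uric acid library 2 is the highest library in the first 3 panels and the lowest for Mt3.

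The promoters of the members were searched for the antioxidant response element, the metal response element and the ATF4 composite element. RefSeq (GRCr8) gave 34 promoter windows for 32 members, each from 250 bases before to 50 bases after a gene start; none was matched for Hmox1, Prdx6, Fth1 and Ftl1. The antioxidant response element, searched as TGACNNNGC on both strands, was in 12 of the 34 windows (35.3%), and in 12.1% of all 33469 windows of the table. Of those 12 matches, 5 overlap the AP-1 site TGACTCA. The metal response element, searched as TGCACNC or TGCGCNC, was in 8 windows (23.5%, against 24.2% of all). The ATF4 composite element, searched as TGATGNAA, was in 0 of the 34, against 3.98% of all. A match in such a window is a description of letters and not of binding. Sites outside the windows were not searched, so the 0 antioxidant elements of Nqo1 and Srxn1 cover only these stretches.

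Stretches around the antioxidant element, in capitals, are shown for the members whose groups did not overlap and for the most abundant peroxiredoxin. They are written in the direction of the gene, all in GRCr8: Txnrd1 at chr7:22755944-22756012 (minus strand), Sod2 at chr1:50050165-50050233 (minus), Gstp1 at chr1:210769728-210769796 (minus) and Prdx1 at chr5:135383741-135383809 (plus). The matches begin at -78, -35, -61 and -135 from the gene start. Another Txnrd1 window, at chr7:22764802-22765101 (minus), holds 0 antioxidant elements.
Txnrd1: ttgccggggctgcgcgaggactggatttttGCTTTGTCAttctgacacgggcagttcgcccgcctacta
Sod2: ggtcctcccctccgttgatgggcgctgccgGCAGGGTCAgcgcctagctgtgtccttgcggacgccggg
Gstp1: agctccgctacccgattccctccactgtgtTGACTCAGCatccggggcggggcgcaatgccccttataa
Prdx1: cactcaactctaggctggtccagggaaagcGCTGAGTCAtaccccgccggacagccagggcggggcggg
Of these 4 genes, Txnrd1, Sod2 and Prdx1 had log2 fold changes below zero that missed the threshold, and Gstp1 was higher at a level below 1.5 FPKM, as given above.

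The 2 metallothionein promoters are shown with metal response elements in capitals because uric acid library 2 was the highest library for both genes. Mt1 (GRCr8, chr19:10832994-10833181, minus strand) has 6 matches and Mt2A (chr19:10838727-10838958, minus strand) has 4. The Mt1 window belongs to the gene beside Mt2A and not to the row on chromosome 17.
Mt1: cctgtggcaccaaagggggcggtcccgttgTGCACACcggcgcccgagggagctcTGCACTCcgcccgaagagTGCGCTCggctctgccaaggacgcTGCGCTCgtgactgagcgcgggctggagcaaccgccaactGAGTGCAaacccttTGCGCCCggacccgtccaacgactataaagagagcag
Mt2A: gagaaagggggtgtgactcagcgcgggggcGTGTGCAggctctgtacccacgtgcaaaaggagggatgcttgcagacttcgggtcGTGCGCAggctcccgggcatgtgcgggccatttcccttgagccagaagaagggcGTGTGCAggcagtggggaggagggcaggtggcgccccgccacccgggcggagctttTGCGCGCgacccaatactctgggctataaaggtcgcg
Each window also holds 1 antioxidant element, at -101 in Mt1 and at -237 in Mt2A, which is not in capitals here.

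Other genes of the pathway were taken from lists that do not overlap with the members. Of 108 tested, 4 rose and 2 fell, where 4.99% and 2.99% of all tested features did, and the median log2 fold change was -0.03. Among 12 genes of NRF2 control, 2 rose. Maff, a small MAF partner of NRF2, rose from 4.28, 4.68 and 5.37 to 9.91, 11.001 and 8.10 FPKM, a log2 fold change of 1.02 ± 0.15 (adjusted p = 0.00553), and passed in each of 16 alternatives. Cul3, which forms the ligase with KEAP1, rose by 0.30 (adjusted p = 0.0372), a call lost with 5 of the 6 libraries left out in turn (adjusted p from 0.0144 to 0.168). Sqstm1, which draws KEAP1 into autophagy, stood at 295, 299 and 289 against 348, 425 and 336 FPKM without overlap (0.33, adjusted p = 0.0574). It passed in 3 of 16 alternatives (adjusted p from 0.0116 to 0.184). Bach1, a repressor at antioxidant elements, was at 0.14 (adjusted p = 0.491).

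Among 12 genes of glutathione supply and use, 1 rose. It was Slc7a11, which imports cystine and is a target of both NRF2 and ATF4, from 0.264 ± 0.0597 to 2.36 ± 0.695 FPKM (3.15 ± 0.26, adjusted p = 0.000268). It reached a mean of 1 FPKM only through the uric acid libraries. With every listed feature tested it also passed (adjusted p = 0.000309), and in limma on log2(FPKM + 1) the difference was 1.39 (adjusted p = 0.00590). The NRF2 targets that join cysteine to glutamate did not pass: Gclc was at -0.08 (adjusted p = 0.757) and Gclm at -0.18 (adjusted p = 0.430). Gsr, glutathione reductase, stood at 38.1, 41.9 and 41.6 against 36.3, 32.4 and 34.0 FPKM without overlap (-0.24, adjusted p = 0.0727), and passed with DESeq2 (0.0329) in a range up to 0.252. Gpx4, which reduces lipid peroxides, was at -0.06 (adjusted p = 0.836) and was the glutathione peroxidase with the highest level, at 42.8 and 41.3 FPKM. Txnip, an inhibitor of thioredoxin, was at 0.04 (adjusted p = 0.898). Sesn2, a sestrin and a target of ATF4 as well as NRF2, was the 1 call among 18 thioredoxin-fold and repair genes (0.81, adjusted p = 0.000519).

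Among 16 genes of iron, haem and metal handling, 0 rose and 2 fell, and 14 lay below zero (median -0.24). Of all 12460 tested features 4.99% rose and 2.99% fell, and 6205 lay below zero (median 0.00). Tfrc, the transferrin receptor, fell by 0.33 (adjusted p = 0.0393), and Ncoa4, the receptor that sends ferritin to lysosomes, fell by 0.25 (adjusted p = 0.0390). Each was lost with 5 of the 6 libraries left out in turn, with adjusted p values up to 0.180 and 0.171. No call was made among 11 other glutathione peroxidases and transferases, 10 other drug-metabolising enzymes, 4 other efflux pumps, 14 other NADPH-making enzymes or 11 genes of selenoprotein synthesis. An unadjusted p under 0.05 was reached by 1, 2, 0, 3 and 0 of these, and by 8 of the 16 iron, haem and metal genes, 4 of the 12 genes of NRF2 control, 2 of the 12 of glutathione supply and 5 of the 18 thioredoxin-fold and repair genes. The share of all tested features was 25.7%.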

How the data were processed

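Polyadenylated RNA of 6 INS-1E libraries was sequenced as read pairs of 150 bases, per the labels' protocols. Tools listed without roles in the submitters' processing notes are HISAT2 2.0.4, cutadapt 1.9, edgeR, DESeq2 and StringTie 1.3.4d. The genome build and the strand used in counting are not given in the sources used here. The deposited table holds FPKM and estimated counts per feature and library, per the file headers. The bases behind 3065 small-RNA values were worked out from FPKM, and 66.6% came out whole within 0.05 of a base (10% by chance). The estimated counts the authors deposited equalled those bases divided by 75, rounded up, in 98.6%; on that scale a full read pair would add 4.

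Estimated counts, as whole numbers, of features with a mean of at least 1 FPKM were tested in edgeR 4.0.16 (R 4.3.3; quasi-likelihood F test, two-sided, TMM factors 0.992 to 1.01, Benjamini-Hochberg over 12460 features, threshold 0.05). The common biological coefficient of variation was 0.127. An exact permutation test of 3 against 3 cannot go below 0.1 and was not used. The script was tested on simulated data. Alternatives were scaling (RLE, upper quartile, totals only), the level filter (any FPKM above 0, or a minimum mean of 5), DESeq2 1.42.0, limma 3.58.1 on log2(FPKM + 1) or log2(FPKM + 0.1), counts divided by 4, a replicate block and each library left out.

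Members and lists were chosen with earlier results of these data known. All members were to be named, with values per library for Nfe2l2, Keap1, members past the threshold and the member with the smallest p of each class. From each list up to 4 genes past the threshold were to be named, and Gclc, Gclm, Slc7a11, Gsr, Gpx4, Sqstm1, Bach1 and Txnip whatever their result; 1 further gene of that rule is not reported here. Chosen after the data were seen were the fits of members below the filter and the rows found by description or position. Promoters came from RefSeq (GRCr8) and were used for letters and gene order only.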

Additional observations from a re-analysis of the deposited data

How the results depend on the processing

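The count of members called stayed at 0 higher and 0 lower under every change of scaling, DESeq2, limma, counts divided by 4 and the filter at 5 FPKM. It became 1 higher (Gstp1) with every listed feature tested, and 1 lower when the feature described as sulfiredoxin 1 was counted as a member. With 1 library left out the number of members lower ranged from 0 to 2 (Mt1 and Mt2A, without uric acid library 2) and the number higher stayed at 0. Of 444 values of the 28 tested members recomputed with other planned settings, 2 changed their side of the threshold. The 5 members below the filter are not in that count, and of these Gstp1 was called in 3 of its 10 alternatives. The uncalled differences of Nfe2l2, Keap1, Hmox1, Txnrd2, Mt1 and Fth1 turned sign in at least 1 setting. Below the filter, those of Gsta4 and Osgin1 did so too. The features higher and lower numbered 622 and 372 in all; DESeq2 gave 972 and 793, and leaving out 1 library gave 165 to 707 and 66 to 466. With the replicate number as a block 223 features were higher and 99 lower, and no member passed. The same numbers in the 2 groups share no stated culture or day. Deviations of same-numbered libraries correlated at 0.07, -0.05 and -0.19 across 12460 features. Only uric acid library 1 correlated best with the library of its own number in the other group. The cause of these shifts was not tested. Gsta4, Gpx1 and Gpx3 rest on at most 30 counts per library.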
